A study of Rattus norvegicus with 77 samples.

Results

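The cytosolic ribosomal protein genes are the genes of the proteins that, with the ribosomal RNAs, build the large and the small subunit of the ribosome. They were taken as the probe sets (the probes of 1 transcript) with 1 gene symbol that begins with Rpl or Rps and a digit, or is Rplp0, Rplp1, Rplp2 or Rpsa, without the Rps6k kinases and without pseudogene symbols, and each gene was represented by its probe set with the brightest mean. This gave 73 genes of the 14506 genes that have a probe set with 1 symbol, with 45 proteins of the large subunit, 27 of the small subunit and Rps19bp1, which the rule takes in by its name although it encodes a binding partner of Rps19. The rule used no difference between groups.

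RNA of sperm from the cauda epididymides of 77 adult male Fischer 344 rats was measured on whole-transcript rat gene arrays, with 1 array per rat. The HD group (19 rats) received 0.33% 2,5-hexanedione (HD), a toxicant of Sertoli cell microtubules, in the drinking water for 3 months, and the water group (20 rats) received control water. The HD-recovery group (20 rats) had the same exposure followed by 3 months on control water, and the water-recovery group (18 rats) received control water throughout. No genetic modification is named for any group, and all sperm passed through a buffer that lyses somatic cells. The study reports that microscopy showed no somatic cells and that electrophoresis showed no ribosomal RNA peaks. Each value describes the sperm together with whatever other cells remained.

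Ribosomal proteins are made in nearly equal amounts in growing cells, and most of their mRNAs begin with a run of pyrimidines, the 5′ terminal oligopyrimidine (TOP) tract, through which their translation is switched on and off together. The small subunit reads the mRNA and the large subunit joins the amino acids, while the stalk of the large subunit (Rplp0, Rplp1 and Rplp2) recruits the elongation factors. Mature sperm translate little in the cytoplasm and shed most of it before they leave the testis, so ribosomal protein mRNA in a sperm preparation may be carried over from spermatogenesis or belong to other cells.

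The starts of 7 genes are shown because the largest differences below lay in the first 3 (Rps15, Rplp1 and Rpl10, low in arrays labelled HD), while Rps7, Rpl31 and Rps26 were among the genes on the high side with all arrays but not without 13 arrays that correlated poorly with their groups, described below as standing apart (−0.01, −0.04 and −0.01), and Rps6, the S6 kinase target, lacked the tract at its annotated start. Each line gives 15 bases before the start and 15 from it on, and capitals mark the pyrimidines that run on without a break from a C at the start.
Rps15: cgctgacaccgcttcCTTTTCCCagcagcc
Rplp1: gcaggcgcatgtgatCCTTTCCTCagctgc
Rpl10: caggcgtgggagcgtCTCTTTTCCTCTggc
Rps7: tcgcgagagctgtgtCTCTTTCTaagccgg
Rpl31: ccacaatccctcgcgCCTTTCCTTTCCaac
Rps26: gagagccgccgggtcCTCTTTCgagtcttg
Rps6: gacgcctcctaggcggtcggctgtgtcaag
The windows come from RefSeq on the GRCr8 build and lie at chr7:10068101-10068130 (minus strand) for Rps15, chr8:71290858-71290887 (minus) for Rplp1, chrX:157205835-157205864 (plus) for Rpl10, chr6:50999431-50999460 (minus) for Rps7, chr9:49143096-49143125 (plus) for Rpl31, chr7:1643390-1643419 (minus) for Rps26 and chr5:106420526-106420555 (minus) for Rps6. They cross the start of transcription, so the second part of each is transcribed sequence of the first exon.

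A promoter window (250 bases before the start and 50 after it) was matched for 62 of the 73 genes. A C at the start followed by at least 4 further pyrimidines was found in 23 of the 62 (37.1%), against 2.63% of all 33465 windows of this length, and such a run began within 10 bases of the start in 46 (74.2%), against 28.9% of all windows. The longest run from the start had 12 bases, in Rpl10, Rpl31 and Rpl37a. Of the motifs searched on both strands, CCGGAAG of the ETS factor GABP was in 29.0% of the 62 windows against 8.75% of all windows, GGGCGG of Sp1 in 59.7% against 33.1%, and AAGATGG, the core of the YY1 motif, in 12.9% against 7.01%. The words CCGGAAG and AAGATGG can share the letters AAG, and this overlap occurred in 0 of the 62 windows. A match describes letters only. Over all arrays, the median log2 fold change of HD against water was −0.02 in the 23 genes with the run at the start. It was −0.02 in the 39 without it there (after recovery 0.08 and 0.07). These medians were alike, and they were not compared without the arrays that stood apart. The 39 include genes with such a run nearby, as in Rps6. The medians therefore do not compare genes with and without a tract.

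A log2 fold change subtracts the mean of the arrays labelled water from that of the arrays labelled HD. Over the whole table, 133 probe sets were called lower and 5 higher in arrays labelled HD, by the test given next. The study reports most of its annotated altered transcripts as elevated after exposure, the opposite direction. The arrays are therefore called by their labels, and every direction below depends on these labels. The reason for the opposite direction was not tested. Of the 73 genes, 0 passed the test of HD against water (limma, Storey q under 0.05 over all 29214 probe sets, of which 0.472% passed), 0 were called after Benjamini-Hochberg adjustment, and 2 had an unadjusted p under 0.05, a share of 2.74% against 9.84% of all genes with 1 symbol. The median log2 fold change was −0.02 over the 73 genes and 0.01 over all genes with 1 symbol. Of the 73, 32 were positive and 41 negative, against 8038 and 6468 of all 14506 genes with 1 symbol. The median was near 0 in both subunits, where 20 of 45 large subunit genes and 12 of 27 small subunit genes were positive.

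**Figure D1:**
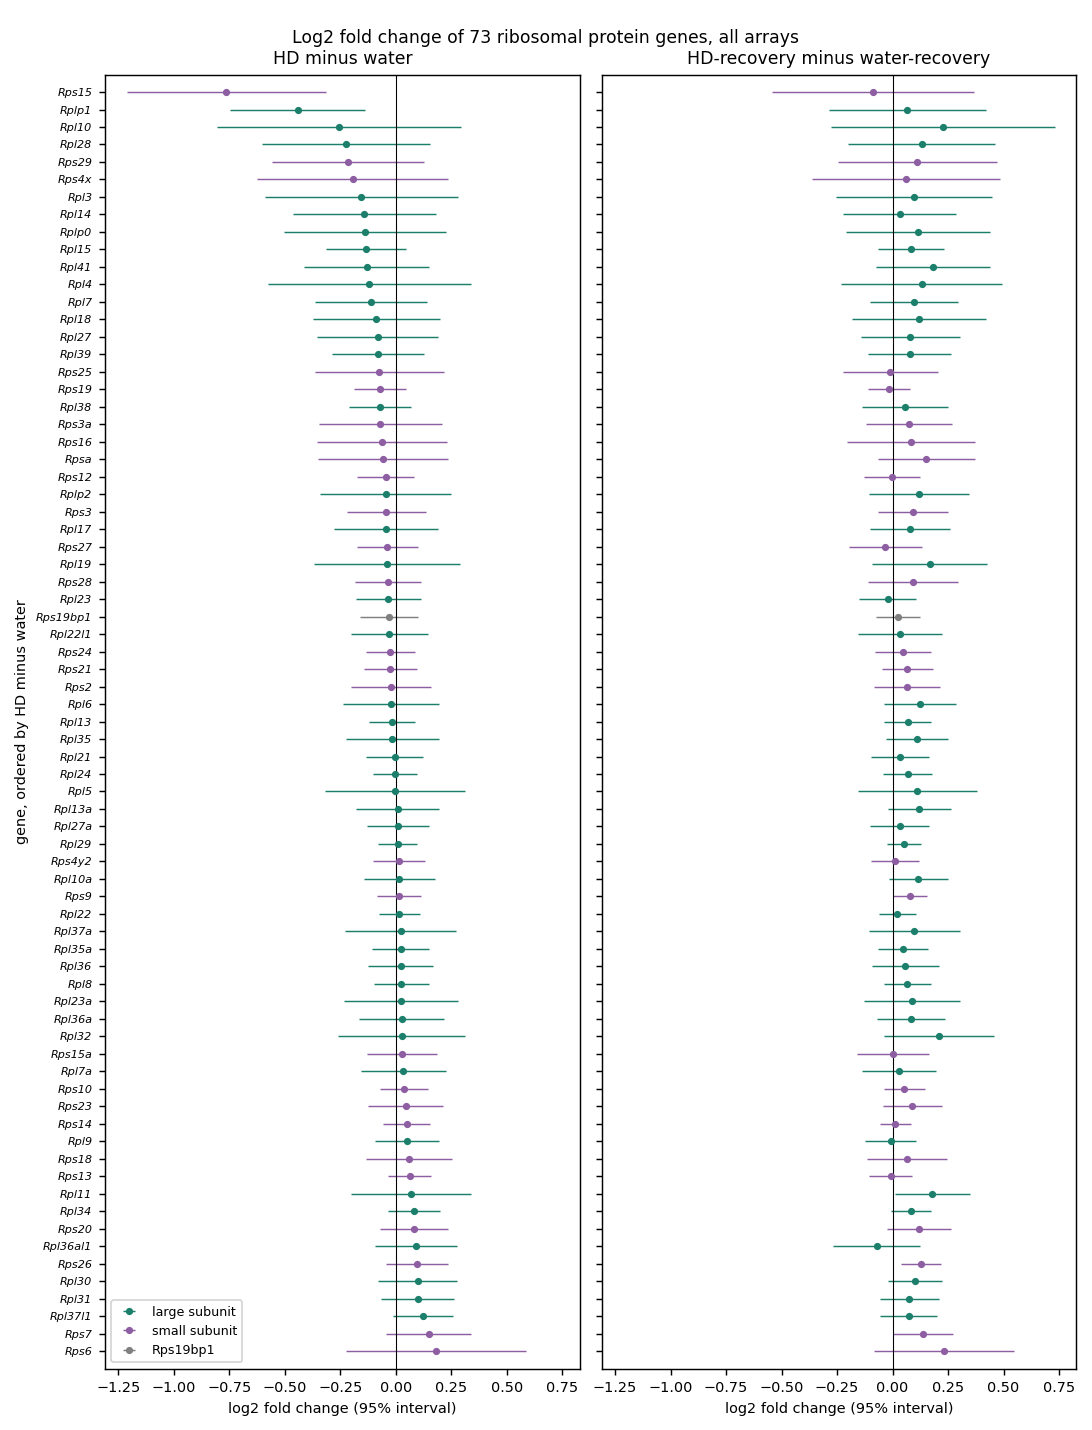
Log2 fold change of the 73 genes in HD minus water (left) and HD-recovery minus water-recovery (right), with 95% intervals from limma over all arrays and genes ordered by HD minus water. Rps15 and Rplp1 stand at −0.76 and −0.44 in HD minus water, and in HD-recovery minus water-recovery 64 of the 73 points lie above 0.

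Rps15, a small subunit protein needed in human cells to bring the subunit out of the nucleus, had log2 signals from 7.68 to 10.32 with a median of 8.82 in arrays labelled HD, and from 8.39 to 10.59 with a median of 9.58 in arrays labelled water. In the later groups it ran from 7.62 to 10.47 (median 9.86) in HD-recovery arrays and from 8.87 to 10.75 (median 9.53) in water-recovery arrays. The groups overlapped widely, yet 16 of the 19 HD arrays were under the water median and 6 were under the lowest water array. Its means were 8.86 ± 0.81 (SD, n = 19) in arrays labelled HD and 9.62 ± 0.64 (n = 20) in arrays labelled water, a log2 fold change of −0.76 (SE 0.22, 95% interval −1.21 to −0.31, 1.70-fold), with p = 0.0014 and q = 0.12.

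Rplp1, an acidic protein of the stalk, ran from 7.91 to 9.71 (median 8.50) in arrays labelled HD and from 8.11 to 9.90 (median 9.14) in arrays labelled water. HD-recovery arrays held 7.80 to 9.78 (median 9.31) and water-recovery arrays 8.38 to 10.20 (median 8.95). Again the groups overlapped, with 16 of the 19 HD arrays under the water median and 3 under the lowest water array. The log2 fold change was −0.44 (SE 0.15, 95% interval −0.75 to −0.14, 1.36-fold), with p = 0.0055 and q = 0.24. Its neighbours of the stalk had smaller values, Rplp0 with −0.14 (SE 0.18, q = 0.97) and Rplp2 with −0.05 (SE 0.15, q = 0.99).

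For both genes the HD group had the lowest mean, and the other 3 group means lay between 9.50 and 9.62 for Rps15 and between 9.04 and 9.10 for Rplp1, within the spread of each group. HD-recovery exceeded HD by 0.64 (SE 0.23, p = 0.0062, q = 0.24) for Rps15 and by 0.46 (SE 0.17, p = 0.0070, q = 0.25) for Rplp1. Water-recovery and water differed by −0.03 (SE 0.23) and −0.05 (SE 0.17). None of these passed the test over the whole table.

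The call of Rps15 depended on single arrays and that of both genes on scaling. Rps15 passed the test when 1 of 3 arrays was left out (HD 3, HD 14 or water 12) and in none of the other 36 such fits, and Rplp1 in 0 of the 39 (lowest q = 0.076). Quantile normalization of the deposited values called both of them lower (Rps15 −0.82, q = 0.026, and Rplp1 −0.46, q = 0.047) and no other of the 73 genes, against 1.16% of probe sets called lower, and array weights called 8 of the 73 lower against 8.67%.

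**Figure D2:**
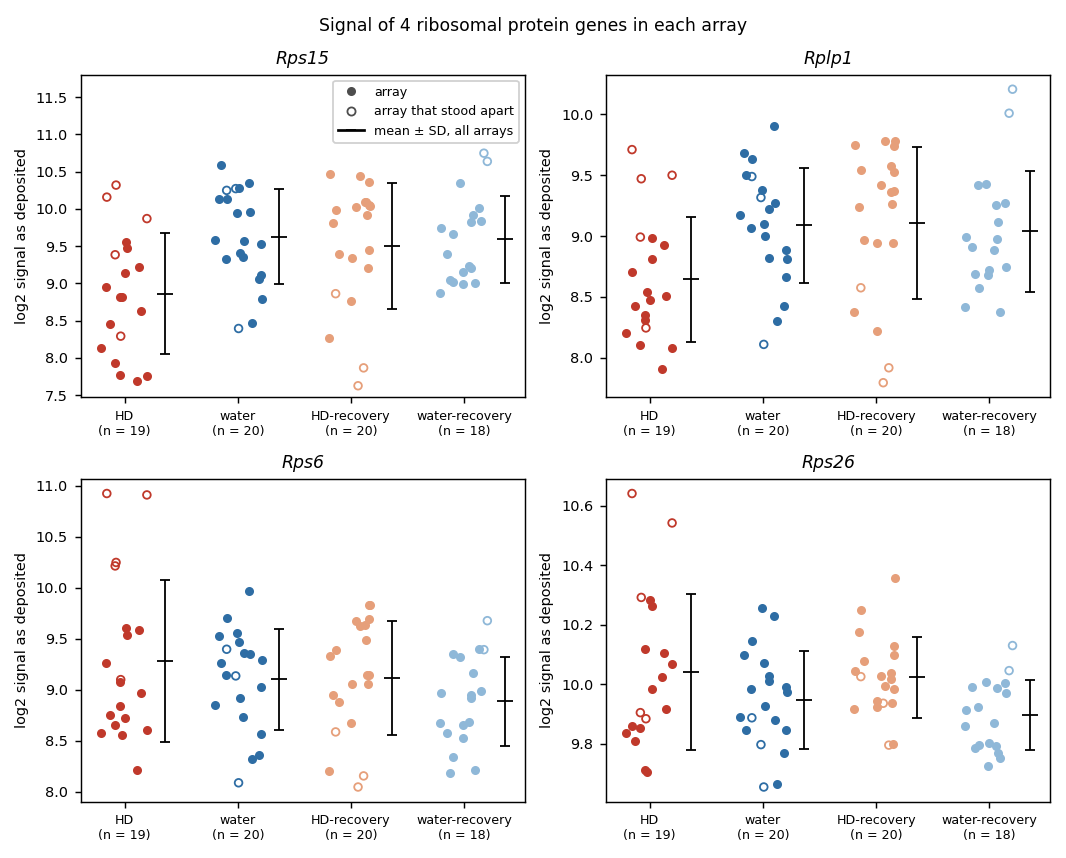
Log2 signal of Rps15, Rplp1, Rps6 and Rps26 in each array of the HD, water, HD-recovery and water-recovery groups, with the mean and SD of all arrays at the right of each group and open circles for the 13 arrays that stood apart. Rps15 averages 8.86 in HD arrays and 9.62 in water arrays, and Rps6 reaches 10.92 in HD arrays through arrays that stood apart.

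Among the well known small subunit proteins, none came near the threshold. Rps6, the substrate of the S6 kinases, had the highest log2 fold change of the 73 genes, 0.18 (SE 0.20, q = 0.96), but −0.22 without the 13 arrays that stood apart. Rps3, which lies where the mRNA enters, had −0.04 (SE 0.09), Rps14 had 0.05 (SE 0.05), and Rpsa, also known as the laminin receptor, had −0.06 (SE 0.14). Rps4x, encoded on the X chromosome, had −0.19 (SE 0.21). Rps19, whose gene is mutated in human Diamond-Blackfan anaemia, had −0.07 (SE 0.06, q = 0.90), and its partner Rps19bp1 −0.03 (SE 0.06). Rps19 varied little: its arrays ran from 8.53 to 9.38 in the HD group and from 8.82 to 9.25 in the water group. The other genes with the smallest p-values in each direction were Rps29 (−0.22) on the low side, and Rps7 (0.15), Rps26 (0.10) and Rps13 (0.06) on the high side, with q from 0.80 to 0.88. Without those arrays Rps7, Rps26 and Rps13 had −0.01, −0.01 and −0.00.

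In the large subunit, Rpl10, an X-linked protein that joins late and shapes the P site, had the widest spread of all 73 genes. Its signal ran from 7.25 to 10.54 in arrays labelled HD (median 8.34) and from 7.04 to 9.85 in arrays labelled water (median 8.97), and the log2 fold change was −0.26 (SE 0.27, q = 0.96). Of the pair of proteins in the 5S particle that bind Mdm2, Rpl5 had −0.00 (SE 0.16) and Rpl11 0.07 (SE 0.13). Rpl3, at the peptidyl transferase centre, had −0.16 (SE 0.22), Rpl13a, which in human cells also acts in the GAIT complex, 0.01 (SE 0.09), Rpl28 −0.23 (SE 0.19) and Rpl15 −0.13 (SE 0.09). On the high side stood Rpl37l1 (0.12, SE 0.07, p = 0.071, q = 0.67), Rpl31 (0.10) and Rpl34 (0.08), and without the arrays that stood apart Rpl31 had −0.04, Rpl34 −0.02 and Rpl11 −0.18.

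Several ribosomal proteins have a second gene, and in mouse some of these copies are used in male germ cells. Rpl22 and its paralog Rpl22l1 had 0.02 (SE 0.05) and −0.03 (SE 0.09) in HD against water. Rpl36al1, a paralog by name, had 0.09 (SE 0.09). The germ cell paralogs Rpl10l and Rpl39l, and Rpl3l, Rps27l, Rpl36al, Rpl7l1 and Rps27a, were not analysed here.

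After recovery, 0 of the 73 genes passed the test of HD-recovery against water-recovery (limma, Storey q and Benjamini-Hochberg alike, with 0% of all probe sets called), and 3 had an unadjusted p under 0.05, all higher, a share of 4.11% beside 726 of all 14506 genes with 1 symbol. The median log2 fold change was 0.08, against 0.00 over all genes with 1 symbol, and 64 of the 73 were positive (87.7%), against 7250 of all 14506 genes with 1 symbol. Most of the 73 genes moved together from array to array, as described below, so these signs are not separate results. The control groups also differed in sign, with 59 of the 73 negative in water-recovery against water. Rps26, which lies at the mRNA exit channel, ran from 9.80 to 10.36 (median 10.02) in HD-recovery arrays and from 9.73 to 10.13 (median 9.89) in water-recovery arrays. The ranges overlapped, and the log2 fold change was 0.13 (SE 0.04, 95% interval 0.04 to 0.22, p = 0.0057, q = 0.75). Rpl11 had 0.18 (SE 0.08, p = 0.037) and Rps9 0.08 (SE 0.04, p = 0.041), both with q = 1. Rps7 (0.13), Rpl34 (0.08) and Rpl10a (0.12) followed, and on the low side the smallest p-values were those of Rpl36al1 (−0.07), Rps15 (−0.09), Rps27 (−0.03), Rpl23 (−0.02), Rps19 (−0.02) and Rps13 (−0.01).

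The difference between the 2 contrasts (HD minus water, less HD-recovery minus water-recovery) was tested in a fit of all 4 groups. It was called for 0 of the 73 genes and 0% of probe sets (limma, 0 also after Benjamini-Hochberg), with a median of −0.07 against 0.01 over all genes with 1 symbol. Of the 73 values 63 were negative, against 6590 of all 14506 genes with 1 symbol. The smallest p-values belonged to Rplp1 (−0.51, SE 0.24, p = 0.034) and Rps15 (−0.67, SE 0.32, p = 0.041), the 2 genes with an unadjusted p under 0.05 (2.74%, against 3.82% of all genes with 1 symbol), followed by Rpl15 (−0.22) and Rpl41 (−0.31), each with q = 1.00. HD-recovery against HD called 0 of the 73 against 0.154% of probe sets, with 3 at an unadjusted p under 0.05 (4.11%, against 11.0% of all genes with 1 symbol). Water-recovery against water called 0 against 0%, with 4 at an unadjusted p under 0.05, all lower (5.48%, against 4.68%). Its median was −0.09 against −0.002 over all genes with 1 symbol, and 59 of the 73 values were negative, against 7433 of all 14506 genes with 1 symbol. The contrasts share groups and are not independent of each other.

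The mean over all 73 genes varied more within groups than between them. This mean signal of the 73 genes ran from 8.62 to 9.67 (median 8.91) over arrays labelled HD and from 8.53 to 9.42 (median 9.08) over arrays labelled water. It ran from 8.52 to 9.31 (median 9.10) over HD-recovery arrays and from 8.70 to 9.24 (median 8.99) over water-recovery arrays. The group means were 9.03 ± 0.29 in HD and 9.06 ± 0.21 in water, and 9.05 ± 0.22 in HD-recovery and 8.98 ± 0.17 in water-recovery (SD over arrays). All 4 groups overlapped over most of their range.

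**Figure D3:**
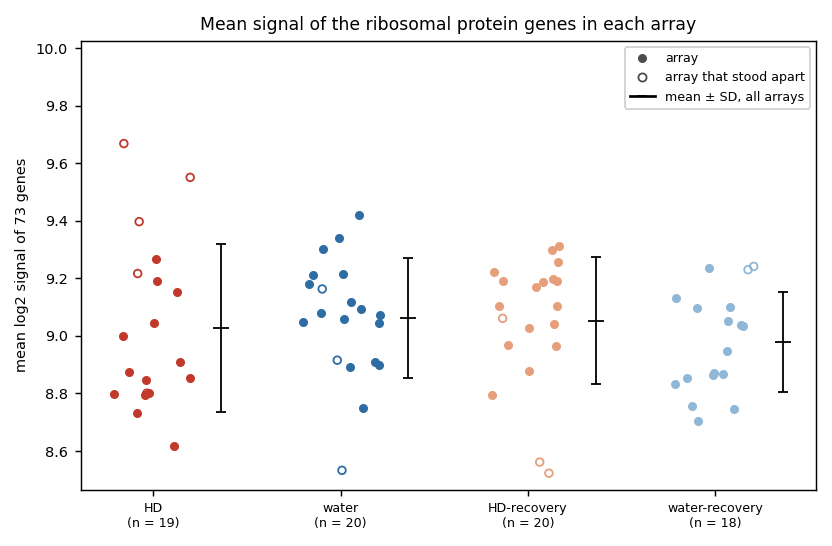
Mean log2 signal of the 73 genes in each array by group, with the mean and SD of all arrays at the right of each group and open circles for the 13 arrays that stood apart. The highest 3 arrays of the HD group (9.67, 9.55 and 9.40) and the lowest 2 of the HD-recovery group (8.56 and 8.52) are open circles.

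Once the group means were removed, most of the genes moved together from array to array. With 1 array per rat, differences between rats and differences in the handling of samples and arrays cannot be told apart. A single component held 76.0% of their variance over the 77 arrays, the median correlation between 2 of them was 0.47 (0.01 between any 2 genes with 1 symbol), and 52 of the 73 correlated above 0.5 with the mean of the others. The SD within groups ran from 0.12 to 0.85, with a median of 0.27 against 0.20 for all genes with 1 symbol, and the widest was that of Rpl10. These correlations share the arrays, their RNA input and their normalization, and describe the arrays only.

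A smaller set did not follow the rest. Of the 73 genes, 10 had a correlation below 0 with the mean of the others, the lowest being Rpl7a (−0.58), Rpl22l1 (−0.35), Rps15a (−0.32), Rpl36al1 (−0.31) and Rps14 (−0.25), and the set also held Rps19, Rpl22, Rps12, Rps4y2 and Rps19bp1. Rpl7a, Rps15a, Rps12 and Rps4y2 are named here because of their values. Rps14 and Rpl22 were also among the least variable, with SDs within groups of 0.13.

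**Figure D4:**
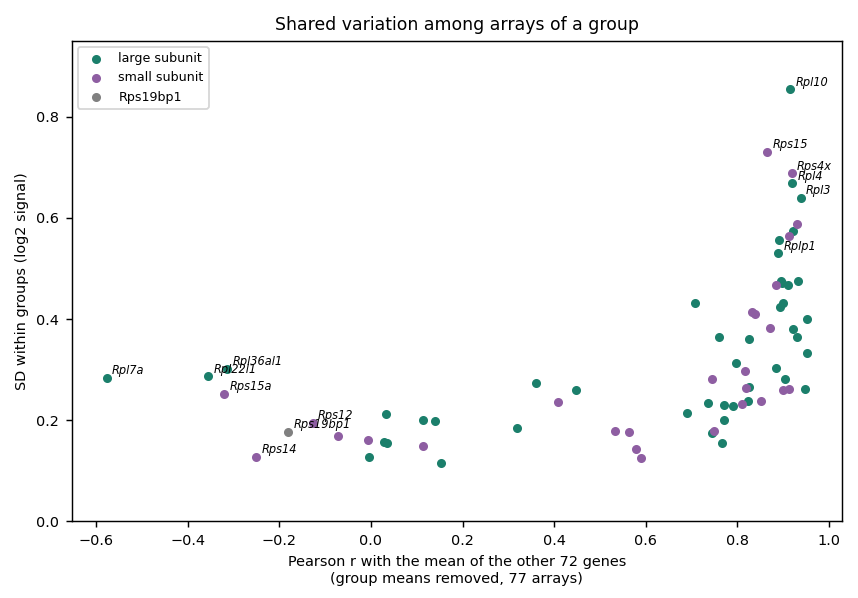
SD within groups of each of the 73 genes (vertical, log2 signal) against its Pearson correlation with the mean of the other genes over 77 arrays after removal of the group means (horizontal). The genes of widest spread, led by Rpl10 at 0.85, lie at high correlation, and Rpl7a lies at −0.58.

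Rps15 and Rplp1 followed each other closely, with r = 0.93 and Spearman rho = 0.93 over the 77 arrays after removal of group means (permutation p = 1e-05 for each, the smallest that 100000 resamples within groups can give). The correlation was 0.94 within HD and 0.90 within water arrays, 0.97 within HD-recovery and 0.91 within water-recovery arrays, 0.92 without the 2 arrays of most extreme Rps15 and 0.88 without the 13 arrays that stood apart. Rps15 also followed the mean of the other 71 genes (r = 0.86, rho = 0.84, both p = 1e-05, and 0.84 without the 2 most extreme arrays). It further followed the mean of 35 leukocyte and macrophage markers, with r = 0.76 and rho = 0.77 (both p = 1e-05), with 0.85 in HD-recovery and 0.64 in water-recovery arrays as the extremes by group. Its r was 0.78 without the 2 arrays of most extreme marker mean and 0.72 once the 13 arrays were left out. No other marker list was set against Rps15, so the relation is not shown to be particular to leukocytes. The pair of Rps15 and Rplp1 was not the closest, since Rps29 had r = 0.94 with Rps15 and 0.95 with Rplp1. The adjusted p was 1e-05 for each of these 3 relations.

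The leukocyte markers themselves differed between the groups. Of the 35 measured, 6 were called lower and none higher in arrays labelled HD. Over all probe sets 0.455% were called lower and 0.0171% higher, and the counts of the other lists below stand beside the same shares. The mean over the leukocyte list ran from 6.90 to 7.65 (median 7.06) in arrays labelled HD and from 7.07 to 7.70 (median 7.38) in arrays labelled water. In HD-recovery arrays it ran from 6.97 to 7.92 (median 7.41) and in water-recovery arrays from 7.01 to 8.02 (median 7.45), with 0 of 35 called. No marker is at 0 in a log2 array table, and 8 of the 35 had a mean below the median of the arrays, as did 5 of 32 sperm and spermatid markers. The mean of the sperm list ran from 8.34 to 10.55 (median 9.00) in arrays labelled HD and from 8.31 to 9.60 (median 8.93) in arrays labelled water, with 1 of its genes called lower and none higher. Of the other lists, 1 of 8 red blood cell and 1 of 14 connective tissue markers were called lower, 0 of 25 of the epididymal epithelium were called, and 1 of 14 Sertoli cell markers was called higher. The part of other cells in the values of Rps15 and Rplp1 was not tested, and in RNA of a whole preparation fewer cells of a type and less RNA per cell cannot be told apart.

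By the rule of a median correlation with the arrays of the same group under 0.957, 13 arrays stood apart: 5 of the HD and 3 of the water group, and 3 of the HD-recovery and 2 of the water-recovery group. They were not neutral for these genes. In the HD group, 4 of the 5 ranked 1, 2, 3 and 5 of 19 in the mean of the 73 genes, in the HD-recovery group 2 of the 3 ranked 19 and 20 of 20, in the water-recovery group the pair ranked 1 and 3 of 18, and water 12 ranked 20 of 20. Leaving them out therefore lowers the mean of the HD group and raises that of the HD-recovery group: without them the means of the 73 genes were 8.92 in HD and 9.10 in water, and 9.11 in HD-recovery and 8.95 in water-recovery arrays. The rule removes arrays that deviate from their own group, in the same values that are then tested. This can shrink the spread within groups, so p-values and adjusted p-values without these arrays can be too small and serve as description. In HD against water the calls over the whole table went from 138 to 10739 of 29214 probe sets.

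Without those arrays, 15 of the 73 genes were lower and 0 higher in HD against water after Benjamini-Hochberg adjustment (limma, 14 and 17 arrays), beside 9.15% of all probe sets lower and 8.99% higher. At Storey q under 0.05, 30 were lower and 2 higher, beside 14.3% of probe sets lower and 22.5% higher, and the median over the 73 genes was −0.12 against 0.03 over all genes with 1 symbol. The large subunit gave 21 of the 30 and the small subunit 9. In arrays labelled HD, Rps15 was lower by 1.03 on the log2 scale (SE 0.21, Benjamini-Hochberg adjusted p = 0.0018, 2.04-fold), with means of 8.60 in HD and 9.62 in water arrays. Rplp1 was lower by 0.65 (SE 0.13, adjusted p = 0.0018). Rps29 (−0.51), Rpl10 (−0.76), Rpl28 (−0.54), Rpl3 (−0.56), Rps4x (−0.59), Rplp0 (−0.46) and Rpsa (−0.30) were also lower after that adjustment. Here Storey's method took a share of 0.361 of the probe sets as unchanged, and its calls reached unadjusted p-values of 0.051.

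In HD-recovery against water-recovery without those arrays, 9 of the 73 genes were higher and 0 lower after Benjamini-Hochberg adjustment (17 and 16 arrays), beside 3.27% of probe sets higher and 1.53% lower, and at Storey q 28 were higher and 0 lower, beside 6.54% and 6.58%, with a median of 0.18 against −0.02 over all genes with 1 symbol. Rps26 was higher by 0.17 (adjusted p = 0.021), Rps7 by 0.21 (adjusted p = 0.037), Rps6 by 0.46 (adjusted p = 0.044), Rpl10a by 0.20 (adjusted p = 0.047) and Rpl41 by 0.39 (adjusted p = 0.027). The difference of the contrasts was then negative for 41 and positive for 2 of the 73 genes after Benjamini-Hochberg adjustment, beside 14.3% of probe sets negative and 22.9% positive, and at Storey q for 51 and 4, beside 19.9% and 41.7%. HD-recovery exceeded HD for 32 and fell below it for 6 after Benjamini-Hochberg adjustment, beside 13.6% higher and 25.9% lower, and at Storey q for 41 and 9, beside 18.8% and 42.1%. Water-recovery against water called 0 of the 73 by either adjustment in limma, with 36 at an unadjusted p under 0.05, all lower (49.3%, against 17.1% of all genes with 1 symbol, 1349 of 2478 of them lower). These counts rest on leaving out the 13 arrays. Without them (Storey q) 22 of the 35 leukocyte markers were also lower and 1 higher in HD against water, beside 14.3% of probe sets lower and 22.5% higher. In HD-recovery against water-recovery 0 of these markers were higher and 0 lower. Of the 32 sperm markers, 17 were higher and 0 lower in HD-recovery against water-recovery, while 11 were higher and 8 lower in HD against water. The part of either list in these counts was not tested.

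**Figure D5:**
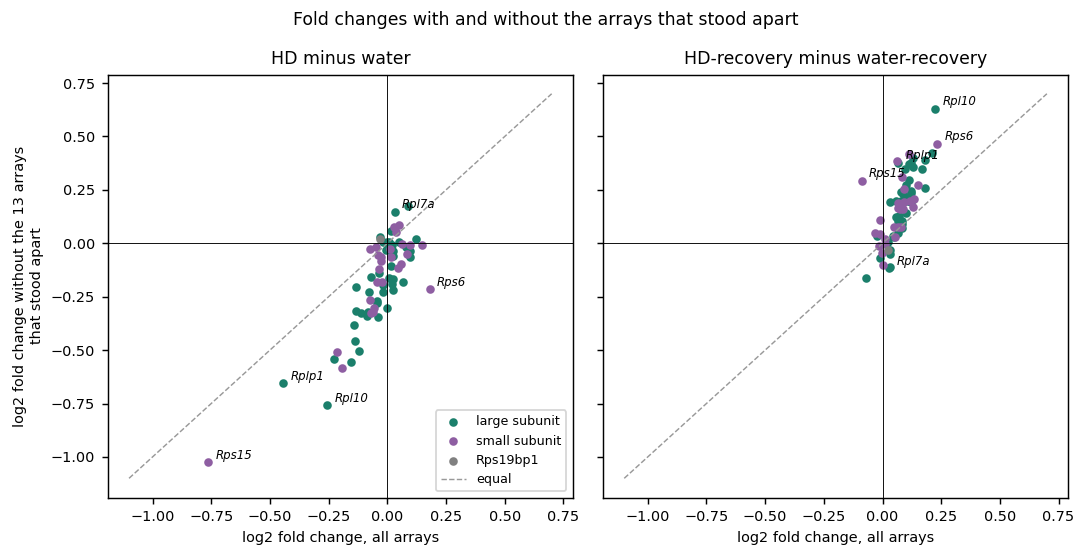
Log2 fold change of the 73 genes without the 13 arrays that stood apart (vertical) against that with all arrays (horizontal), for HD minus water (left) and HD-recovery minus water-recovery (right), with the dashed line of equal values. Without those arrays Rps15 lies at −1.03 in HD minus water, and Rpl10 at −0.76 in HD minus water and 0.63 in HD-recovery minus water-recovery.

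Most of the 73 genes have processed pseudogenes and near-identical copies, so their probe sets may share signal with other loci. The 73 genes had 261 probe sets, 18 genes had 1 and 55 had several, up to 21 for Rpl21, and 8 probe sets held the same values as another of their gene. None of the 261 was called in HD against water or after recovery. The sets of 1 gene gave both signs in HD against water for 14 genes, though all within small values, as in Rpl21 (−0.04 to 0.00) or Rplp0 (−0.14 to 0.05). In Rpl13 alone a probe set differed by more than 0.3 from the brightest (−0.65, against −0.02 for the brightest set), and in 10 genes, such as Rpsa and Rps9, some sets correlated below 0.5 over the arrays. Rps15 had 1 probe set, and the 2 of Rplp1 gave −0.45 and −0.44.

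Other genes of translation were read from lists of their own. In HD against water and in HD-recovery against water-recovery with all arrays, none was called of 14 elongation and release factors, 32 initiation factors, 41 ribosome biogenesis genes, 16 kinases and regulators of translation, 68 mitochondrial ribosomal proteins, and Fau and Rack1, which belong to the cytosolic ribosome but not to the rule. Fau, made as a fusion with a ubiquitin-like protein, had −0.15 (SE 0.12) and Rack1, a scaffold on the small subunit, −0.19 (SE 0.17) in HD against water. Among the initiation factors the smallest p-values were those of Eif4e, which binds the cap (0.14, SE 0.07, p = 0.040, q = 0.56), and Eif2s2, a subunit of eIF2 (0.15, SE 0.07, q = 0.58). Without the arrays that stood apart, 13 of the 32 initiation factors and 7 of the 14 elongation and release factors were lower at Storey q in HD against water, with 0 and 1 higher, and 11 and 5 were higher in HD-recovery against water-recovery, with 0 lower in both, beside 14.3% of probe sets lower and 22.5% higher in HD against water and 6.54% higher and 6.58% lower after recovery. Against the same shares of all probe sets, the counts for the mitochondrial ribosomal proteins were 13 lower and 3 higher of 68 in HD against water, and 10 higher and 1 lower after recovery. Of the 41 biogenesis genes 6 were lower, a share near that of all probe sets, and 0 higher in HD against water, with 1 in each direction after recovery. Of the 16 kinases and regulators 4 were lower and 0 higher, with 3 higher and 0 lower after recovery, and Fau and Rack1 were both lower, with 1 of them higher after recovery.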

How the data were processed

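The deposited table holds log2 values of 29214 probe sets, between 2.51 and 14.63, which the authors normalized from probe intensities by a method cited from earlier work, with no steps given here. The submitters' notes name limma, and array medians ran from 6.51 to 6.78. No detection p-values or batches were used. A linear model per probe set was fitted with limma 3.58.1 in R 4.3.3 (lmFit, eBayes) to each exposed group and its control, and to all 4 groups for the other comparisons. Storey q-values (smoother) were computed over all probe sets and called under 0.05. The model was checked on simulated data. Each array is 1 rat, and the number of arrays limits the precision. The members and lists were chosen with earlier results of these data known. Named genes are the 6 smallest p-values in each direction of the first 2 comparisons, the 4 smallest in their difference, and well known proteins, and others are named for a stated reason. Alternatives were scaling, array weights, adjustment, probe set choice, a filter on dim probe sets, a replicate block, and arrays left out. Arrays that stood apart had a median correlation with their group more than 3 scaled MADs below that of all 77 arrays. Promoters came from RefSeq (GRCr8).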

Additional observations from a re-analysis of the deposited data

How the results depend on the processing

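With all arrays, 0 of the 73 genes were called in HD against water and in HD-recovery against water-recovery, and the same held with array medians centred, Benjamini-Hochberg adjustment, the mean of a gene's probe sets, a filter on dim probe sets (which 4 of the 73 did not pass) and all 4 groups in one fit. Quantile normalization gave 2, 0, 0 and 0 calls in HD against water, HD-recovery against water-recovery, the difference of both and HD-recovery against HD. Over all 29214 probe sets it gave 352, 0, 0 and 120. Array weights gave 8, 1 (Rps26, 0.16, q = 0.034), 39 and 38, beside 5178, 527, 9833 and 13211 of 29214 probe sets. Leaving out the arrays that stood apart gave 32, 28, 55 and 50 calls, beside 10739, 3834, 18010 and 17792 of 29214 probe sets. After Benjamini-Hochberg adjustment it gave 15, 9, 43 and 38, beside 5298, 1402, 10842 and 11547 of 29214. This combination was chosen after seeing the data because the q-values then called p-values up to 0.119. The cause was not tested. Water-recovery against water gave 0 in every fit run. Leaving out 1 array at a time gave 0 to 1 calls in HD against water (Rps15) and 0 in HD-recovery against water-recovery, with medians of −0.04 to 0.00 and 0.06 to 0.10. Without the arrays that stood apart, Rpl13a changed sign and was called (0.01 over all arrays, −0.16 without, q = 0.036), and a further 11 of the 33 named genes changed sign in HD against water with no call, as did 7 in HD-recovery against water-recovery, Rps15 among them (−0.09 over all arrays, 0.29 without). Replicate numbers are shared between groups, and the correlation of same-numbered arrays varied in sign from pair to pair (r from −0.58 to 0.65 over 19 pairs of HD and water, and from −0.41 to 0.64 over 18 pairs after recovery). With the replicate block 0 genes were called in both comparisons. The mean signal of the 73 genes tended to be higher in arrays numbered 1 to 10 than in those numbered 11 to 20 in HD and water. In both recovery groups it tended to be lower. Such blocks of numbers were not tested. Dim signals and sequence shared with pseudogene copies limit what a single probe set shows.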
